A study of Mus musculus with 3 samples.

Results

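St6gal1, St3gal6, B4galt4, Alg1, Pmm2, Pigz, Pigx and Xxylt1 are 8 genes of glycosylation, and their transcript levels were compared in blood stem and progenitor cells of WT mouse embryos and of embryos hemizygous or homozygous for a DNMT3B7 transgene. They were chosen by name from 1534 genes whose values could be compared, out of 38205 gene identifiers per table, and the choice was made with their ratios between genotypes in view. The ratios between libraries are therefore a description of these genes and support nothing beyond them. The data are RNA sequencing of LSK cells, sorted as negative for lineage markers and positive for Sca1 and c-Kit from the fetal liver of C57Bl/6 embryos at E14.5. The 3 groups were WT embryos, embryos hemizygous for DNMT3B7 and embryos homozygous for DNMT3B7, with 1 library each, made from total RNA of cells pooled over 4 to 5 embryos. DNMT3B7 lacks the C-terminal, catalytic part of DNMT3B, an enzyme that methylates DNA. For the promoter that drives the transgene and the number of founder lines, nothing is given in the sources used here. With 1 library per genotype no test was possible, and every difference below is one between libraries with no replicate check.

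Glycosylation attaches sugars to proteins and lipids. N-glycans are built as a precursor on a lipid in the endoplasmic reticulum from activated sugars such as GDP-mannose, moved to the protein and then extended in the Golgi with galactose and sialic acid. A GPI anchor, another product of the same compartments, holds proteins to the cell surface, and short sugars on Notch receptors tune Notch signalling. On blood cells, sialic acid added by St6gal1 is the ligand of the B cell receptor partner CD22, and the gene is known for high expression in B cells and in hepatocytes.

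The 4 promoter windows that follow show how the CG dinucleotide, the base pair step that DNA methyltransferases modify, is placed ahead of St6gal1 and of B4galt4, a galactosyltransferase gene. They are shown because DNMT3B7 derives from an enzyme that acts on CG. No methylation was measured. Each is the 250 bases before an annotated transcription start, 5′ to 3′ on the gene's strand, from RefSeq (GRCm38.p6), with CG in capitals.
St6gal1 start 1, chr16:23224490-23224739, + strand: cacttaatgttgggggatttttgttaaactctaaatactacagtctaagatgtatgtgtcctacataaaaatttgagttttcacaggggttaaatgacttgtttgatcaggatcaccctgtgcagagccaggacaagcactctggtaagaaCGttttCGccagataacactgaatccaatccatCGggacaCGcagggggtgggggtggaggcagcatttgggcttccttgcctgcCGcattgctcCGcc
St6gal1 start 2, chr16:23225771-23226020, + strand: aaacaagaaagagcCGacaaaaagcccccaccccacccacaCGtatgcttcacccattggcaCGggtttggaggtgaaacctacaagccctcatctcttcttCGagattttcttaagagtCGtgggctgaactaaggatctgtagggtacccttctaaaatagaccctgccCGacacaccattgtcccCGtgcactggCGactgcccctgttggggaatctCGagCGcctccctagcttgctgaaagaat
St6gal1 start 3, chr16:23290220-23290469, + strand: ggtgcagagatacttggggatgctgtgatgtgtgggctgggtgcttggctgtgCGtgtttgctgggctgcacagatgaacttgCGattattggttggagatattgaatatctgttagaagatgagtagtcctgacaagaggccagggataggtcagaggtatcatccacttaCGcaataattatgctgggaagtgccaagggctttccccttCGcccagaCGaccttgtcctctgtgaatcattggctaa
B4galt4 start 1, chr16:38742009-38742258, + strand: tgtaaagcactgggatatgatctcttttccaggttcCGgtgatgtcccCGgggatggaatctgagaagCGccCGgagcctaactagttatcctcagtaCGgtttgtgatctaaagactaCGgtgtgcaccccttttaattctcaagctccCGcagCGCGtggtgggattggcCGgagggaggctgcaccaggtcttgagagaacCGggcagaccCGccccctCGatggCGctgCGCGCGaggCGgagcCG
The St6gal1 windows held 6, 10 and 5 CG, while the B4galt4 window held 19. Over 32851 such windows of 27025 genes the median was 6 CG, with quartiles of 2 and 16. All 8 genes matched this table, with 11 windows among them. Single windows held 20 CG at Pigx, 16 at Pmm2, 14 at Pigz, 13 at Xxylt1 and 11 at Alg1, and the pair at St3gal6 held 1 and 16. The GC box (GGGCGG or its reverse complement CCGCCC) was found in 32.7% of all windows, in none of the 3 of St6gal1, and in the window of Pmm2, Alg1, B4galt4, Pigx and Pigz and 1 of those of St3gal6. The values below are per gene, so which St6gal1 start was used was not measured.

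By definition, FPKM counts fragments relative to transcript length and sequencing depth. The deposited FPKM summed to 3644987661 to 4871776472 per library, so how depth entered it is not known. It was divided by 1 factor common to all libraries, and the result is called the value. For St6gal1 in the WT library a deposited FPKM of 204489 became a value of 48.2. On 11 chromosomes high values were far more frequent before a break than after it (on chromosome 16, 223 of 501 protein-coding genes before and none after), so the genes compared were those before the breaks and the mitochondrial genome. All 8 genes lie in the chromosome 16 segment, which holds 825 of the genes compared. With the median transcript of each gene, the depth read from low values was about 3120939 (WT), 3099094 (hemizygous) and 2372717 (homozygous) fragments. With the longest transcript it was about 5775958, 6015174 and 4863128, so it depends on the length taken. The intervals given are 95% counting intervals from fragments estimated with the median transcript unless stated, and cover counting error only. Mitochondrial transcripts took 65.1%, 61.4% and 52.7% of the fragments on genes compared. Sum scaling, which sets every library to the same total over the genes compared, raised the median log2 ratio of all genes by 0.53 for homozygous to WT, 0.20 for hemizygous to WT and 0.34 for homozygous to hemizygous, and the directions stated below for single genes are marked where it turns them. Beside the values, a log2 ratio is taken after adding 1 to each value and so understates changes of low genes, and a fold is the plain ratio of values. Fewer cells of a type and less RNA per cell cannot be told apart in these pooled samples.

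St6gal1 (ENSMUSG00000022885) encodes the Golgi sialyltransferase that caps galactose on N-glycans. Its value was 48.2 (43.6 to 53.1) in WT, 36.9 (33.0 to 41.1) in hemizygous and 19.4 (16.4 to 22.7) in homozygous cells. The level was highest in WT, intermediate in the hemizygous library and lowest in the homozygous library, and the 3 intervals did not overlap, while under sum scaling those of WT (37.0 to 45.1) and the hemizygous library (32.3 to 40.2) did. The homozygous value was 2.48-fold lower than WT (2.06 to 3.01), a log2 ratio of -1.27. The hemizygous to WT fold was 0.765 (0.660 to 0.888), with a log2 ratio of -0.38. From hemizygous to homozygous the fold was 0.526 (0.431 to 0.638), with a log2 ratio of -0.89. Of 989 genes measured in the homozygous to WT comparison, 12 had a lower ratio. Under sum scaling the homozygous to WT log2 ratio was -0.73, short of 2-fold, and St6gal1 was lower than WT in both transgenic libraries under each of the 3 other scalings tried (sum, sum without mitochondrial genes and median ratio).

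St3gal6 (ENSMUSG00000022747), the other sialyltransferase of the set, caps galactose through a different linkage. Its value was 59.3 (46.9 to 73.4) in WT, 58.0 (46.3 to 71.9) in hemizygous and 61.9 (49.2 to 77.1) in homozygous cells. These 3 levels lay within each other's intervals. The homozygous to WT fold was 1.04 (0.762 to 1.45), and the estimate rested on 80.9 to 84.0 fragments per library with the median transcript and on 931 to 967 with the longest, which gave an interval of 0.952 to 1.14. B4galt4 (ENSMUSG00000022793), a galactosyltransferase that acts on N-acetylglucosamine, had values of 76.6 (66.4 to 88.2), 64.7 (55.4 to 75.0) and 61.1 (51.6 to 71.6) in the WT, hemizygous and homozygous libraries. It was highest in WT, with a homozygous to WT fold of 0.798 (0.638 to 0.988) that turned to a log2 ratio of 0.23 under sum scaling, and the intervals of the 3 levels overlapped.

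**Figure D1:**
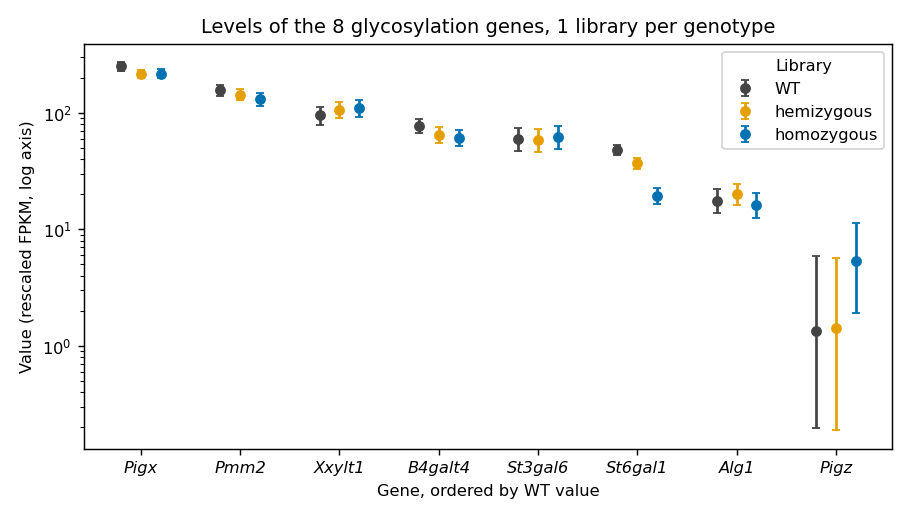
Value (rescaled FPKM, log axis) of the 8 genes in the WT, hemizygous and homozygous libraries, 1 library each, with 95% counting intervals as bars. The St6gal1 points step down from 48.2 to 36.9 to 19.4, while those of St3gal6 stay between 58.0 and 61.9.

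Pmm2 and Alg1 act at the start of N-glycan assembly. Pmm2 (ENSMUSG00000022711) is the phosphomannomutase that makes the mannose phosphate used for GDP-mannose, and its value was 156.1 (139.7 to 174.0), 142.6 (127.4 to 159.3) and 130.7 (115.2 to 147.4) in the WT, hemizygous and homozygous libraries. The level was highest in WT and lowest in the homozygous library, with overlapping intervals and a homozygous to WT fold of 0.838 (0.708 to 0.986), which turned to a log2 ratio of 0.30 under sum scaling. Alg1 (ENSMUSG00000039427), which adds the first mannose to the lipid-linked precursor, had values of 17.6 (13.8 to 22.1), 19.9 (16.1 to 24.7) and 16.3 (12.5 to 20.7). Of the 3 libraries the hemizygous one was highest, all 3 intervals overlapped, and the homozygous to WT fold was 0.928 (0.651 to 1.30), a log2 ratio of 0.43 under sum scaling, where the homozygous library was highest. The exons of Alg1 share 472 bases with those of Eef2kmt on the opposite strand, whose values were 85.4, 92.6 and 92.4, and the strand setting is not given in the sources used here, so reads of both genes cannot be told apart there.

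Xxylt1 (ENSMUSG00000047434) adds xylose to the O-glucose glycans of Notch-type repeats. Its value was 95.2 (79.1 to 113.0) in WT, 105.8 (89.3 to 124.0) in hemizygous and 108.7 (91.0 to 128.0) in homozygous cells. WT was lowest, the intervals overlapped, and the homozygous to WT fold was 1.14 (0.890 to 1.46). These intervals rested on the median transcript. With the longest one, the interval was 1.06 to 1.23 for homozygous to WT and 1.03 to 1.20 for hemizygous to WT. Whether the intervals of these folds include 1 therefore depends on the transcript length taken.

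Pigx and Pigz belong to the GPI anchor pathway. Pigx (ENSMUSG00000023791), the partner subunit of the mannosyltransferase that adds the first mannose of the anchor, had the highest value of the 8 genes in every library, at 249.4 (229.8 to 270.2), 215.8 (198.2 to 234.8) and 215.4 (196.9 to 235.4). The hemizygous and homozygous levels lay within each other's intervals and below WT, with folds to WT of 0.866 (0.769 to 0.974) and 0.864 (0.765 to 0.975), the second of which turned to a log2 ratio of 0.35 under sum scaling. Pigz (ENSMUSG00000045625), which adds a further mannose to the anchor, was the lowest of the 8, with values of 1.36 (0.199 to 5.94), 1.42 (0.189 to 5.63) and 5.33 (1.90 to 11.3). The homozygous library was highest, and all 3 intervals overlapped. These values stood for about 1.65, 1.82 and 6.18 fragments, so the homozygous to WT fold of 3.93 had an interval of 0.563 to 31.9, which includes 1. With the longest transcript in place of the median one, the Pigz estimates came to 10.8, 11.9 and 40.5 fragments and the interval to 1.98 to 8.44, so whether it includes 1 depends on the transcript length taken. The exons of Pigz share 193 bases with those of Gm49731 on the same strand, a gene with no value in these data. Reads of both genes cannot be told apart there.

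A gene was counted as past the size rule when its log2 ratio reached 2-fold. In the homozygous to WT comparison 1 of the 8 genes was higher (Pigz) and 1 lower (St6gal1), beside 2.33% of the 989 genes measured in each direction. Because the genes were chosen with this ratio in view, nothing is read from that count. The other 6 lay within 1.5-fold, as did 87.4% of all genes. The median log2 ratio of the 8 was -0.16, and that of all genes -0.04. In the hemizygous to WT comparison none of the 8 was past 2-fold, where 2.02% of 989 genes were higher and 0.91% lower. In the homozygous to hemizygous comparison Pigz was higher and none of the 8 was lower, where 1.6% of 998 genes were higher and 2.81% lower. Counting intervals lay below 1 for 4 of the 8 genes in homozygous to WT (St6gal1, Pmm2, B4galt4 and Pigx), beside 19% of all genes. They lay above 1 for none, beside 13.2%. Upper limits were close to 1 for Pmm2 (0.986), B4galt4 (0.988) and Pigx (0.975). Under sum scaling the log2 ratios of Pmm2, B4galt4 and Pigx turned positive (0.30, 0.23 and 0.35), so the count depends on the scaling. Nothing is read from it, for the reason given above. For hemizygous to WT, counting intervals lay below 1 for St6gal1 and Pigx (14.6% of all genes) and above 1 for none (16.7%). For homozygous to hemizygous they lay below 1 for St6gal1 alone (19.9%) and above 1 for none (9.22%). With the longest transcript of each gene in place of the median one, 6, 5 and 3 of the 8 had intervals that excluded 1 in homozygous to WT, hemizygous to WT and homozygous to hemizygous, beside 46.6%, 44.7% and 42.6% of all genes. The intervals of the folds not yet given included 1 with the median transcript. With the longest, they excluded 1 for Pmm2, B4galt4 and Xxylt1 in hemizygous to WT. In homozygous to hemizygous they then excluded 1 for Pmm2 and Pigz. To WT, the hemizygous fold was 0.914 (0.780 to 1.07) for Pmm2, above 1 under sum scaling, and 0.845 (0.683 to 1.04) for B4galt4. It was 1.13 (0.828 to 1.57) for Alg1, 1.11 (0.872 to 1.42) for Xxylt1 and 0.978 (0.716 to 1.35) for St3gal6, the last also above 1 under sum scaling. From hemizygous to homozygous the folds of the 6 genes other than St6gal1 and Pigz ran from 0.818 (0.578 to 1.13) for Alg1, above 1 under sum scaling, to 1.07 (0.777 to 1.47) for St3gal6. The homozygous to WT and hemizygous to WT comparisons share the WT library, so they are not independent.

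The order of the 8 genes by value in the WT library was Pigx, Pmm2, Xxylt1, B4galt4, St3gal6, St6gal1, Alg1 and Pigz. FPKM is per transcript length, so these levels can be set side by side. Between neighbours in that order, the intervals of the ratios, taken with the median transcript, included 1 for 3 pairs. These were Xxylt1 and B4galt4, B4galt4 and St3gal6, and St3gal6 and St6gal1. The hemizygous library had the same order, and there only B4galt4 and St3gal6 were within their counting error. In the homozygous library St3gal6 stood ahead of B4galt4, and the intervals included 1 for this pair, for Pmm2 and Xxylt1 and for St6gal1 and Alg1. With the longest transcript the WT fragments rose from 127 to 1252 for Xxylt1, from 197 to 649 for B4galt4 and from 81.4 to 937 for St3gal6. Intervals of the ratios between neighbours were not computed on that length, so whether they would still include 1 is not known. The median value of the 1006 measured genes was 56.0, 57.4 and 52.4 in the WT, hemizygous and homozygous libraries. St6gal1 thus lay close to the median in WT and below it in the homozygous library.

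Ratios between genes of the same library do not depend on how the libraries are scaled. The ratio of St6gal1 to St3gal6 was 0.812 (0.641 to 1.05) in WT, 0.635 (0.498 to 0.817) in hemizygous and 0.313 (0.237 to 0.414) in homozygous cells. For St6gal1 to B4galt4 the ratio was 0.629 (0.528 to 0.748), 0.569 (0.473 to 0.689) and 0.317 (0.252 to 0.400). Both ratios were lowest in the homozygous library, where their intervals did not overlap those of WT. The St3gal6 to B4galt4 ratio was 0.775 (0.586 to 1.00), 0.897 (0.684 to 1.17) and 1.01 (0.766 to 1.34), with intervals that overlapped on the median transcript. Pmm2 to Pigx gave 0.626 (0.546 to 0.718), 0.661 (0.573 to 0.760) and 0.607 (0.519 to 0.705), also overlapping.

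**Figure D2:**
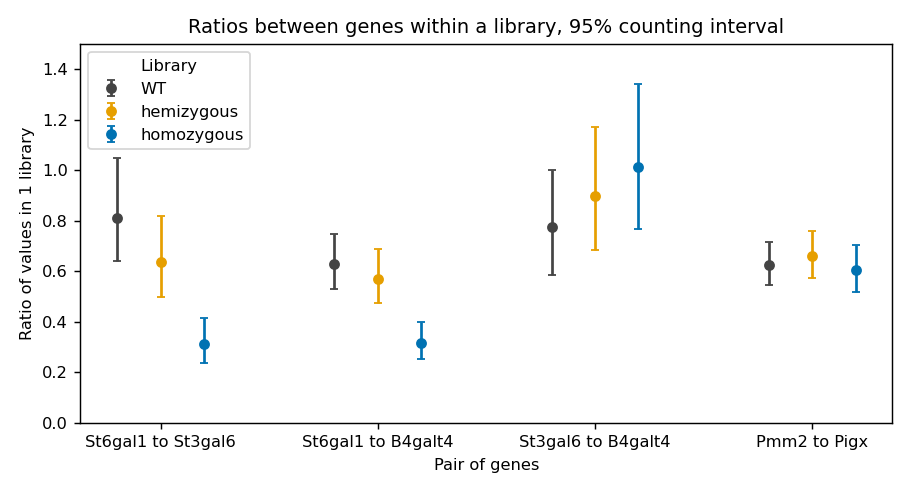
Ratio of values between pairs of genes within 1 library (vertical axis, no unit), for the WT, hemizygous and homozygous libraries, with 95% counting intervals. The St6gal1 to St3gal6 ratio goes from 0.812 in WT to 0.313 in the homozygous library.

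A list of 263 glycosylation genes held 15 that could be compared, all of them measured, and 7 of these were not among the 8. None of the 7 was past 2-fold in any comparison, beside the 2.33%, 2.02% and 1.6% of all genes that were higher and the 2.33%, 0.91% and 2.81% that were lower for homozygous to WT, hemizygous to WT and homozygous to hemizygous, so few or none of 7 genes would be past it at the share of all genes. Alg3, a mannosyltransferase of the N-glycan precursor, had values of 79.6, 114.0 and 74.1 in the WT, hemizygous and homozygous libraries. It was highest in the hemizygous library, with a fold to WT of 1.43 (1.24 to 1.65), and the homozygous to hemizygous fold was 0.650 (0.561 to 0.754). Sdf2l1, an endoplasmic reticulum protein with a domain also found in protein mannosyltransferases, was at 277.7, 267.0 and 325.0, highest in the homozygous library, with a fold to WT of 1.17 (1.07 to 1.27). Nagpa, which uncovers the mannose phosphate signal of lysosomal enzymes, was at 232.6, 202.0 and 202.1, below WT in both transgenic libraries as deposited, but at 197.5, 197.7 and 252.5 under sum scaling. Slc35a5, Poglut1, B4gat1 and B3gnt5 had homozygous to WT log2 ratios between -0.30 and 0.07. Over all 15 genes the median log2 ratio was -0.10 for homozygous to WT, -0.03 for hemizygous to WT and -0.02 for homozygous to hemizygous, beside -0.04, 0.03 and -0.06 for all genes measured. The lists for mucin-type O-glycans and for glycosaminoglycans had no gene that could be compared.

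**Figure D3:**
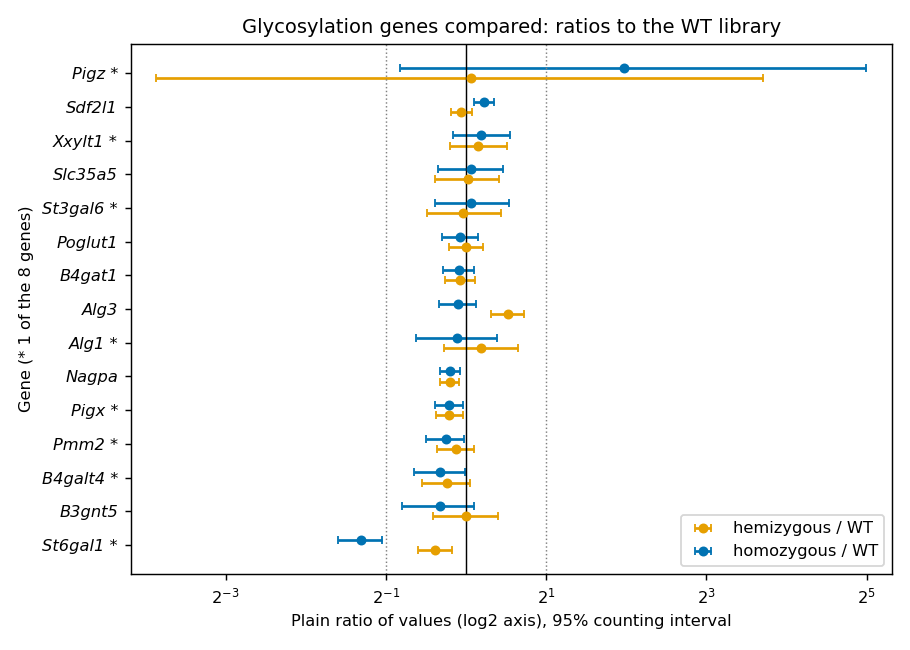
Plain ratio of values to the WT library (log2 axis) of the 15 glycosylation genes compared, for the hemizygous and the homozygous library, with 95% counting intervals. Among the genes with narrow intervals, the homozygous point of St6gal1 at 0.403 lies farthest from 1, and the interval of Pigz spans 0.563 to 31.9.

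The genes whose ratios to WT were most like those of St6gal1 were sought among genes that reached a value of 10 in any library (754 with St6gal1), by the distance between the pairs of log2 ratios over the 3 libraries. The 5 nearest were Igll1, Vpreb2, Gm15879, Mrpl39 and Vpreb1, all on chromosome 16, which held 825 of the 1534 genes compared. Igll1, Vpreb1 and Vpreb2 encode the surrogate light chain of the pre-B cell receptor, and Gm15879 is an annotated antisense RNA. Igll1 was at 235.9, 190.0 and 95.5, Vpreb2 at 107.1, 88.3 and 39.7, and Vpreb1 at 174.2, 122.1 and 57.0 in the WT, hemizygous and homozygous libraries. All 3 were highest in WT and lowest in the homozygous library. The ratio of St6gal1 to Igll1 within a library was 0.204, 0.194 and 0.203, to Vpreb2 0.450, 0.418 and 0.489, and to Vpreb1 0.276, 0.302 and 0.340. These genes were picked for their likeness to St6gal1 in the same ratios, so the choice itself keeps these quotients close. Mrpl39, a mitochondrial ribosomal protein gene, was at 20.0, 14.1 and 6.29. By the same distance B4galt4 stood at place 85, Pmm2 at 120, Pigx at 141, Alg1 at 379, St3gal6 at 463 and Xxylt1 at 618.

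**Figure D4:**
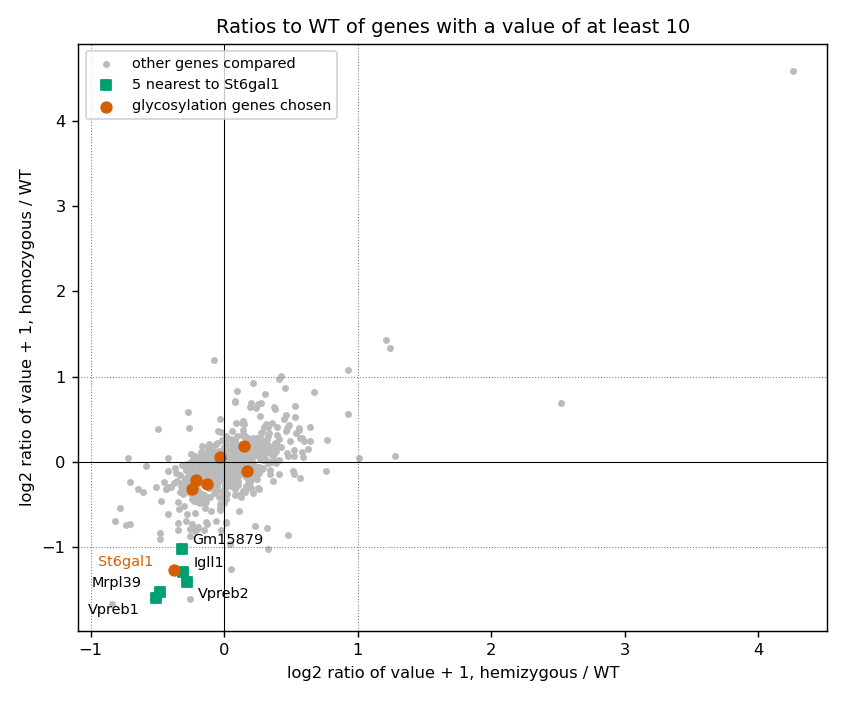
Log2 ratio of value + 1 to the WT library, hemizygous on the horizontal and homozygous on the vertical axis, for genes that reached a value of 10, with the 5 genes nearest to St6gal1 as squares. St6gal1 at -0.38 and -1.27 lies beside Igll1 at -0.31 and -1.30.

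Markers of other cell types were read in the same way, for the genes that could be compared. The summed value of the 3 of 13 B lymphoid markers compared was 517.2, 400.4 and 192.2 in the WT, hemizygous and homozygous libraries. It was lower where St6gal1 was lower. The markers in this sum are Igll1, Vpreb1 and Vpreb2, already found above by their likeness to St6gal1, so this is not a separate observation. The part of the B lymphoid sum in the St6gal1 difference was not tested. Hepatocyte markers, 6 of 14 compared, summed to 4.36, 3.82 and 5.55, with Fetub and Hrg at 0 in all 3 libraries and Ahsg at 3.70, 3.49 and 3.67. The 3 of 15 endothelial and vessel wall markers summed to 54.2, 70.0 and 101.4, and their part was not tested either. Erythroid markers, 3 of 12, summed to 3545, 3570 and 2876, megakaryocyte markers, 2 of 8, to 22.0, 20.8 and 34.9, and myeloid markers, 2 of 13, to 45.6, 39.7 and 35.8. Within the megakaryocyte and erythroid sums members differed in direction between WT and homozygous. Gp5 was at 16.5 and 30.1 and Gp1bb at 5.50 and 4.76. Car1 was at 64.7 and 76.7, Tfrc at 1280 and 1013 and Car2 at 2200 and 1786. Under sum scaling Gp1bb, Tfrc and Car2 were higher in the homozygous library than in WT. The erythroid sum was then 3010, 3493 and 3594, the myeloid sum 38.8, 38.9 and 44.7 and Runx1 128.8, 149.7 and 165.5, each highest in the homozygous library, and the B lymphoid sum was 439.2, 391.8 and 240.2. Of 13 LSK markers only Runx1 could be compared, at 151.7, 153.0 and 132.5 as deposited, and Ly6a and Kit, which define the gate, could not, so the labelled cell type was not checked against them.

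On chromosome 16 the 8 genes stand in the order Alg1, Pmm2, St6gal1, Xxylt1, Pigz, Pigx, B4galt4 and St3gal6, at places 54, 63, 310, 357, 367, 374, 493 and 611 of 825. The nearest measured genes on either side of St6gal1 did not step down in value from WT to hemizygous to homozygous. BC106179, whose exons share 200 bases with St6gal1 on the opposite strand, was at 2.77, 3.72 and 1.86 in the WT, hemizygous and homozygous libraries. Like St6gal1, it was lowest in the homozygous library, but its values stood for only about 35.6, 50.4 and 22.8 fragments. Rtp4, a chaperone of membrane receptors induced by interferon, was at 69.5, 41.8 and 71.8 in the same order. Among the 20 measured genes nearest St6gal1, 1 was past 2-fold higher in the homozygous to WT comparison and none was lower, beside 14 higher and 14 lower of 504 on the whole segment. Around Pigz 18 of the 20 nearest genes entered that comparison, of which 3 were higher (Apod, Gm15696 and Gm15694) and 1 lower (Gm15742). These were counted after the values had been seen. Gm15742 stood for only about 2.01, 1.00 and 0 fragments in the WT, hemizygous and homozygous libraries. The highest value in any library was 5.77 for Apod, 16.6 for Gm15696 and 21.3 for Gm15694. St3gal6 shares 1603 exon bases with Dcbld2 on the opposite strand, whose values were 5.48, 6.22 and 6.21. Of the St3gal6 stretches of 50 bases, 24.1% occur in another gene. All of these occur in Dcbld2, so this is the same overlap.

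**Figure D5:**
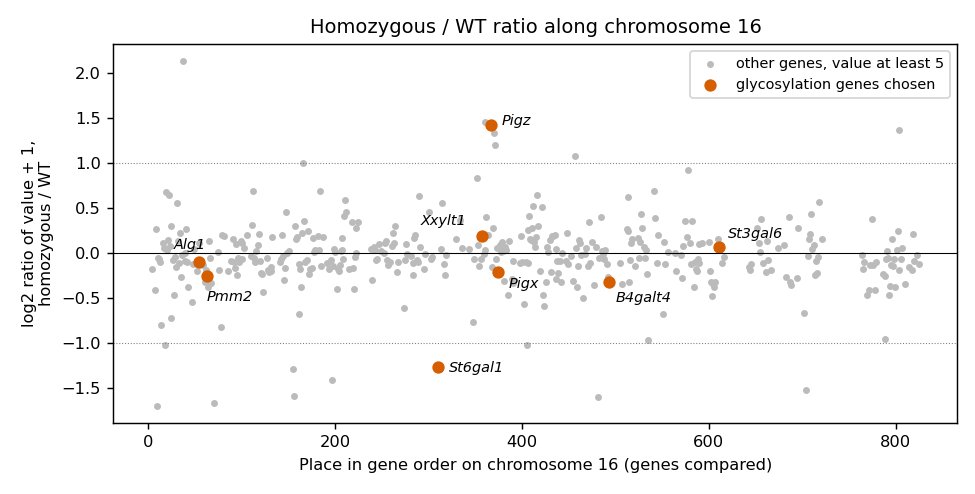
Homozygous to WT log2 ratio of value + 1 (vertical axis) by place in gene order on chromosome 16 (horizontal axis), for genes that reached a value of 5 and the 8 glycosylation genes. St6gal1 at place 310 lies at -1.27 and Pigz at place 367 at 1.43.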

How the data were processed

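RNA sequencing of 3 libraries, 1 per genotype label, was used. The deposited values were FPKM per gene, with a status, per the file headers. The submitters' processing notes name mm9 as the build and list Bowtie2, TopHat2 and Cufflinks. Neither annotation nor strand setting is given in the sources used here. Of 38205 identifiers, 36216 were found in GENCODE M21, which gave gene order, types and transcript lengths. Rows had status OK, the highest row per identifier was kept, and all libraries were divided by 1 factor, since the deposited FPKM summed to 3644987661 to 4871776472 per library.

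Past a point on many chromosomes, genes active in every cell type often had values of about 0. On each chromosome this break was placed where it gave the best likelihood for the proportion of protein-coding genes whose deposited FPKM averaged 200000 or more, and kept at a log likelihood gain of at least 5, with gene families left out, as in an earlier analysis. Other thresholds, and a fit with the families, were tried after the values were seen and moved the chromosome 16 break; the printed promoters were also chosen then. A gene was measured with a value of at least 1 in 1 of the libraries compared. The pseudocount was 1. Fragments were estimated with a unit read from low values of genes with a single transcript of 1000 to 10000 bases. The length used was the median transcript length less an assumed 200 bases. A whole number of units (tolerance 0.05) was found in 72.1% of 804 values (WT), 70.4% of 877 (hemizygous) and 73.2% of 816 (homozygous). The unit was chosen, among many candidates, as the one with the largest such share. The 10% expected by chance holds for a unit fixed in advance, so these shares do not test the unit. Intervals are exact Poisson for levels and exact conditional (Clopper-Pearson) for ratios. The ratio formula was run on simulated Poisson counts with a known unit and a fixed transcript length. That run does not test the estimated unit or the transcript length taken. No p-value is given. The named genes are the 8 genes, the 5 most like St6gal1, the nearest measured neighbours, and the measured genes of the glycosylation and marker lists. The genes and lists were chosen with earlier results of these data known. Python 3.11.15, NumPy 2.4.6, pandas 2.3.3, SciPy 1.17.1 and Matplotlib 3.10.9 were used.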

Additional observations from a re-analysis of the deposited data

How the results depend on the processing

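No paired analysis was possible because each genotype had 1 library, and no replicate could be left out. Dropping the minimum value, raising it to 5 and keeping chromosome 16 alone change only which genes enter. Such settings cannot move the log2 ratio of a gene that is kept, yet they are included in the count that follows. Of 191 recomputed log2 ratios of the 8 genes, 178 stayed within their counting interval, and the 13 that did not were under scaling of all libraries to the same sum over the genes compared, of which mitochondrial transcripts took 52.7% to 65.1% of fragments. That scaling moved the median of all genes by 0.53 (homozygous to WT), 0.20 (hemizygous to WT) and 0.34 (homozygous to hemizygous). Under it the St6gal1 log2 ratio was -0.73 for homozygous to WT, short of 2-fold, and -0.55 for homozygous to hemizygous. The homozygous to WT log2 ratios turned positive under it for Pmm2 (0.30), Alg1 (0.43), B4galt4 (0.23) and Pigx (0.35), and Pigz reached 1.83. Scaling to the sum without mitochondrial genes, added after the data were seen, gave St6gal1 -1.20, and median-ratio scaling gave -1.24. Hemizygous to WT, Pmm2 (0.07) and St3gal6 (0.17, or 0.02 without mitochondrial genes) changed sign; homozygous to hemizygous, Pmm2 (0.23), Alg1 (0.06), B4galt4 (0.27) and Pigx (0.35) did, and Pigx also under median-ratio scaling (0.04) and without mitochondrial genes (0.02). With a pseudocount of 5, Pigz was at 0.70 and 0.69 against WT and hemizygous, short of 2-fold.

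Counts of genes past 2-fold, higher then lower, moved by over 1.5 times as follows. With a pseudocount of 0.1 they were 31 and 16 for hemizygous to WT and 29 and 48 for homozygous to hemizygous. With a pseudocount of 5 they were 6 and 0 (hemizygous to WT), 2 and 9 (homozygous to WT) and 1 and 8 (homozygous to hemizygous). With a minimum value of 5 they were 10 and 1 of 827 genes, 11 and 13 of 819, and 5 and 14 of 825 in the same order. On chromosome 16 alone 8 of 506 genes were higher for hemizygous to WT. There 14 were higher and 14 lower of 504 for homozygous to WT, and 10 and 16 of 511 for homozygous to hemizygous. The main setting held 989 genes for each comparison to WT and 998 for homozygous to hemizygous. Counts from these 2 smaller sets are therefore not directly comparable with the main counts. Under sum scaling the counts, higher then lower, were 63 and 9 for homozygous to WT and 34 and 15 for homozygous to hemizygous. With the longest transcript, the intervals of 5 of the 8 genes excluded 1 for hemizygous to WT and of 3 for homozygous to hemizygous, beside 44.7% and 42.6% of all genes. The cause of these shifts was not tested beyond the settings named.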
